A study of Mus musculus with 2 samples.

Results

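Cholesterol synthesis and its control were examined through 28 genes of 43346 gene rows measured in G1E-ER4 cells. The genes were chosen by name: 18 encode enzymes of the route from acetyl-CoA to cholesterol, 5 encode regulators of the route, and 5 encode proteins that move, store or export sterols. All 28 were matched to a gene row by the GENCODE mouse annotation. G1E-ER4 is a mouse erythroid cell line without a working Gata1 gene of its own. It makes GATA1, the master regulator of red cell genes, as a fusion with the ligand-binding domain of the estrogen receptor. Exposure was to 10 nM 17beta-estradiol for 30 h, which activates the fusion protein and starts red cell maturation. Poly(A) RNA gave 2 paired-end libraries, labelled biological replicates 1 and 2 of this 1 group. No library of untreated cells was analysed. The data therefore give levels, ratios between genes and the spread between replicates, and no effect of estradiol. They describe 1 immortalized line, not erythroblasts in an animal.

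Animal cells make cholesterol by joining acetyl-CoA units into mevalonate, turning mevalonate into isoprenoid diphosphates, joining these into squalene, closing squalene into lanosterol, and trimming lanosterol to cholesterol. The route is set by the transcription factors SREBP-1 and SREBP-2, which are made as membrane proteins of the endoplasmic reticulum. When sterols are low, the escort protein SCAP carries them to the Golgi, where proteases release the active part. When sterols are high, INSIG proteins hold SCAP back. Red cell membranes are rich in cholesterol, and a mature red cell no longer makes its own.

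The 2 libraries held 73681318 and 56056404 expected counts over the gene rows, for replicates 1 and 2. Levels are in TPM, a unit corrected for transcript length and scaled to a fixed sum per library, which allows genes to be compared within a library, and n is 2 throughout. The erythroid label was met by the markers: all 8 erythroid markers reached 1 TPM in both libraries, with the beta-like globin gene Hbb-bs highest at 154254 and 133818 TPM. In transcripts annotated as protein-coding Hbb-bs had 277 and 305 TPM. The 8 include Gata1 (2036 and 1608 TPM), which the line carries as the fusion and which is thus no independent marker. Epb42 was the lowest, at 1.5 and 1.05 TPM. Of 18 markers of myeloid, megakaryocyte, mast, lymphoid, fibroblast and liver cells, 2, both of the megakaryocyte list, reached 1 TPM in both libraries. The myeloid markers summed to 0.31 TPM in replicate 1 and 10.8 TPM in replicate 2, led by Mpo at 0.19 and 3.96 TPM, and Lyz1 and S100a8 had 0 counts. In bulk RNA, fewer cells that express a gene and less RNA per cell cannot be told apart.

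The sterol genes ranged from among the most abundant messages of the cell to absent. Of the 28 genes, 23 reached 1 TPM in both libraries, against 35.3% of all protein-coding genes. The level of 10 TPM was reached by 15 genes, against 20.4% of protein-coding genes, and 100 TPM by 2 genes, against 4.32%. Their median was 17.8 TPM, beside 14.7 TPM for the 7743 protein-coding genes with a mean of at least 1 TPM and 0.015 TPM for all protein-coding genes. Together they held 0.136% ± 0.00710 of all TPM (SD), and Srebf2 alone held 40.1% ± 1.62 of that sum. The median was 23.8 TPM for the 5 enzymes of the mevalonate stage, 15.6 TPM for the 2 isoprenoid enzymes and 44.8 TPM for the 3 enzymes from squalene to lanosterol. It was 5.65 TPM for the 8 enzymes from lanosterol to cholesterol, 34.4 TPM for the 5 regulators and 1.41 TPM for the 5 genes of transport and storage.

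**Figure D1:**
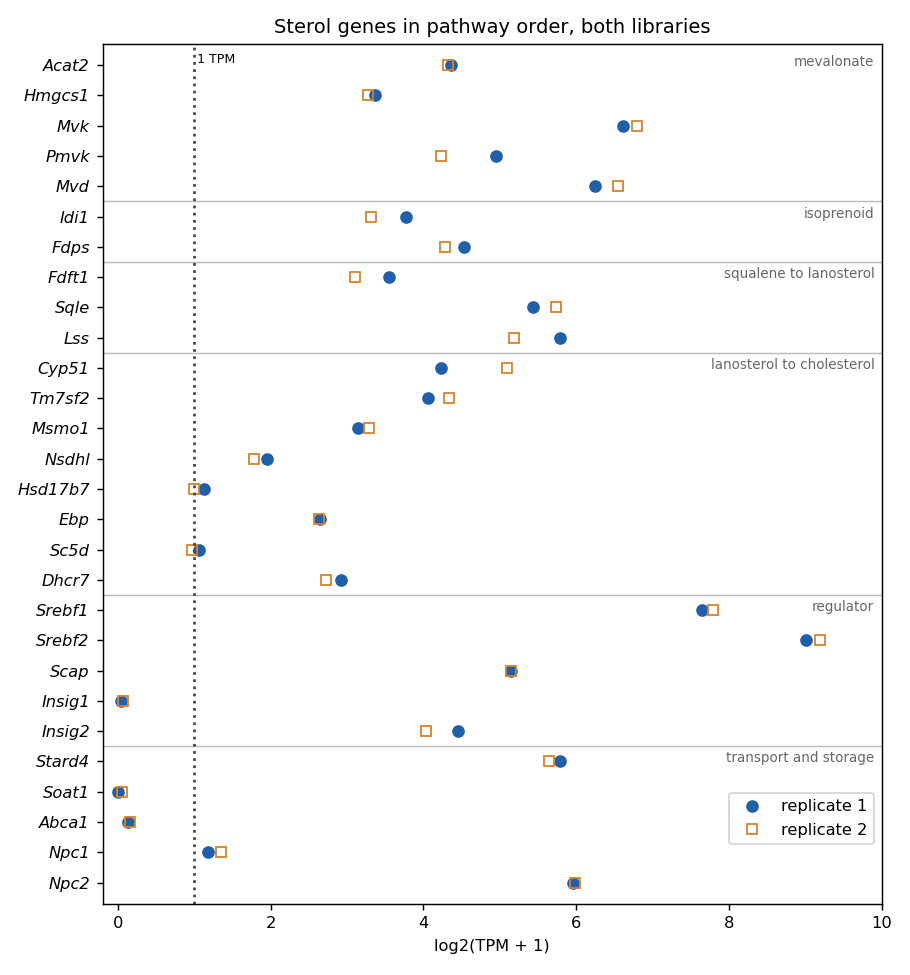
Level of each of the 28 genes in pathway order as log2(TPM + 1), with filled circles for replicate 1 and open squares for replicate 2; grey lines divide the stages and the dotted line marks 1 TPM. Srebf2 (512.18 and 583.7 TPM) and Srebf1 (199.79 and 220.4 TPM) stand above all enzymes, while Insig1, Soat1 and Abca1 lie at or near 0.

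The first stage was carried by uneven levels of its enzymes. Acat2, the cytosolic thiolase that joins acetyl-CoA units, had 19.5 and 19.1 TPM, where values of replicate 1 are followed by those of replicate 2. Hmgcs1, the cytosolic HMG-CoA synthase of the next step, had 9.29 and 8.63 TPM, the lowest of the 5 enzymes of this stage. Differences between genes are given as log2 ratios of TPM + 1 within each library, later step over earlier step, with a 95% interval from the spread that limma estimated over 8247 genes. The interval treats the 2 genes of a pair as independent. Hmgcs1 lay below Acat2 by this measure, at −0.99 and −1.06 (interval −1.46 to −0.59).

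Acat2 has a relative in mitochondria that serves other routes. Acat1, the mitochondrial thiolase, had 15.7 and 6.81 TPM. Acat2 over Acat1 was 0.29 in replicate 1 and 1.36 in replicate 2 (interval 0.08 to 1.58). The interval held 0 without the filter on low values (−0.28 to 1.93), with posterior mean TPM (−0.06 to 1.69) and after TPM was adjusted for the GC content of the genes (−0.37 to 0.87). In transcripts annotated as protein-coding Acat1 had 0.96 and 1.1 TPM, against 19.5 and 19.1 TPM for Acat2.

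Hmgcs1 (ENSMUSG00000093930, chromosome 13, 119690379 to 119708260, plus strand, build mm10) is a textbook SREBP target. Its promoter is shown because it alone, among the members' promoters available here, held TCACNCCAC, a form of the core of a sterol regulatory element. The only other form searched was TCACCCCA, given below for Srebf2. The window runs from 250 bases before to 50 bases after the RefSeq start site (build GRCm38.p6, the assembly of mm10). It is written 5′ to 3′ on the gene's strand, with capitals for the letters TCACNCCAC of the sterol element and for CCAAT boxes (CCAAT or ATTGG), to which the SREBP partner NF-Y is known to bind.
Hmgcs1, chr13:119690101-119690400: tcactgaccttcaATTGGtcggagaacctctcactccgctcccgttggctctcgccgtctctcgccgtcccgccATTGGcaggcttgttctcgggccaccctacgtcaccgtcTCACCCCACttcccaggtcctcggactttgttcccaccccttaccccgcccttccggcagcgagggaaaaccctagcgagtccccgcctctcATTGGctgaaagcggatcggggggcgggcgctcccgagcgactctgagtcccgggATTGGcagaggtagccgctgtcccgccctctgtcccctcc
Counted from the start site, the sterol element began at −137 and the 4 CCAAT boxes, all on the opposite strand, at −237, −176, −45 and 10. A level of 9.29 and 8.63 TPM placed Hmgcs1 at percentile 77.9 of all protein-coding genes and at percentile 38.7 of those with at least 1 TPM.

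Of the kinases and the decarboxylase that turn mevalonate into isopentenyl diphosphate, Mvk and Mvd were higher than Acat2 and Hmgcs1. Mvk, mevalonate kinase, had 96.4 and 110 TPM, the highest of the 18 enzymes in TPM as deposited, while Sqle was the highest after adjustment for GC. It exceeded Hmgcs1 by 3.24 and 3.53 on the log2(TPM + 1) scale (interval 2.95 to 3.82), and by 1.70 after adjustment for GC (interval 1.28 to 2.13). Pmvk, phosphomevalonate kinase, had 29.9 and 17.7 TPM, so its 2 libraries lay further apart than those of Mvk. Pmvk was below Mvk by −1.65 and −2.57 (interval −2.70 to −1.53), and it was above Acat2 in replicate 1 only. Mvd, the decarboxylase that closes this stage, had 74.6 and 92.7 TPM and exceeded Pmvk by 1.29 and 2.33 (interval 1.21 to 2.40). Mvk and Mvd stood above the other 3 enzymes of the stage in both libraries.

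The isoprenoid enzymes were lower than Mvk and Mvd. Idi1, which interconverts the pair of isoprenoid building blocks, had 12.6 and 8.97 TPM, below Mvd by −2.47 and −3.23 (interval −3.37 to −2.34). After adjustment for GC this difference was −0.54 (interval −0.99 to −0.09). Fdps, farnesyl diphosphate synthase, whose product also feeds protein prenylation, ubiquinone and dolichol, had 22.2 and 18.5 TPM. Fdps exceeded Idi1 by 0.76 and 0.97 (interval 0.35 to 1.38), but after adjustment for GC the mean was −0.71 (interval −1.17 to −0.24). The adjustment takes out the median level of expressed protein-coding genes of like GC content. It cannot tell a bias of measurement from a true relation between GC content and level. Idi1 has a GC content of 40.6% and Fdps of 52.8%.

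The 3 enzymes that commit carbon to sterols differed from each other. Fdft1, squalene synthase, had 10.7 and 7.61 TPM, below Fdps by −0.99 and −1.18 (interval −1.60 to −0.57). Its gene model overlaps 774 bases of Ctsb on the other strand, a gene with 17243 and 10840 counts, and whether the counting used strand is not known here. Sqle, squalene epoxidase, a known control point of the route, had 42.1 and 52.2 TPM, above Fdft1 by 1.89 and 2.63 (interval 1.74 to 2.77) and by 3.24 after adjustment for GC (interval 2.74 to 3.75).

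Lss, the synthase that closes the sterol rings, had 54.3 and 35.3 TPM, and its relation to Sqle was 0.36 in replicate 1 and −0.55 in replicate 2, so the 2 genes were not separated (interval −0.65 to 0.45). Most of the Lss level was assigned to a processed transcript of 352 bases, which took 62.6% ± 10.2 of TPM from 556 and 202 counts. The protein-coding transcript of 4667 bases took 30.7% ± 8.77 of TPM from 4466 and 3347 counts. In protein-coding transcripts alone Lss had 13.3 and 13.0 TPM, and the ratio to Sqle was then −1.72 (interval −2.15 to −1.29). After adjustment for GC it was −0.80 (interval −1.31 to −0.29).

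The last stage, from lanosterol to cholesterol, held the lowest enzymes. Cyp51 (chromosome 5, 4081145 to 4104746, minus strand), the lanosterol demethylase, had 17.8 and 33.04 TPM and was the highest of the 8. Cyp51 over Lss was −1.56 and −0.09 (interval −1.54 to −0.11), but 0.84 in protein-coding transcripts alone (interval 0.24 to 1.43) and 0.09 after adjustment for GC (interval −0.56 to 0.74). Without the filter on low values its interval held 0 (−1.86 to 0.22). The interval does not use the pairing of genes within a library. As deposited, the mean ratio was −0.82 and its SD between the libraries 1.04. Tm7sf2, a sterol reductase of the next step whose gene model shares 532 bases with Vps51 on the same strand, had 15.7 and 19.2 TPM and was not separated from Cyp51, at −0.17 and −0.75 (interval −1.11 to 0.19), in TPM as deposited. It was below Cyp51 in protein-coding transcripts, at −0.76 (interval −1.37 to −0.14), and after adjustment for GC, at −2.01 (interval −2.64 to −1.38). Lbr, the lamin B receptor, which carries the same reductase activity, had 67.7 and 58.3 TPM. Tm7sf2 was below Lbr by −2.04 and −1.56 (interval −2.25 to −1.35), and by −3.13 after adjustment for GC (interval −3.58 to −2.68).

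Msmo1, Nsdhl and Hsd17b7 encode the enzymes that take methyl groups off the sterol ring. Msmo1 had 7.86 and 8.76 TPM, below Tm7sf2 by −0.92 and −1.05 (interval −1.45 to −0.52), a sign that turned to 0.64 after adjustment for GC (interval 0.17 to 1.11). Nsdhl had 2.87 and 2.45 TPM, below Msmo1 by −1.19 and −1.50 (interval −1.81 to −0.89). Hsd17b7 had 1.18 and 0.99 TPM, below Nsdhl by −0.83 and −0.79 (interval −1.27 to −0.35). Levels stepped down at each of these 3 genes in both libraries, in TPM as deposited.

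Ebp, the sterol isomerase, had 5.26 and 5.19 TPM, above Hsd17b7 by 1.52 and 1.64 (interval 1.13 to 2.03). Sc5d, the desaturase, had 1.08 and 0.96 TPM from 159 and 110 counts and was the lowest of the 18 enzymes in TPM as deposited, below Ebp by −1.59 and −1.66 (interval −2.07 to −1.18). In protein-coding transcripts Sc5d over Ebp was −0.43 with an interval that held 0 (−0.88 to 0.03). Hsd17b7 was then the lowest enzyme, at 0.745 TPM beside 1.02 TPM for Sc5d, and under 1 TPM its pairs had no interval. After adjustment for GC Hsd17b7 was also the lowest, at 1.97 TPM beside 2.30 TPM for Sc5d. Dhcr7, the reductase that makes cholesterol from dehydrocholesterol, had 6.57 and 5.58 TPM, above Sc5d by 1.86 and 1.75 (interval 1.35 to 2.26), and by 0.90 after adjustment for GC (interval 0.53 to 1.28). Of the 17 pairs of listed enzymes in pathway order, the interval excluded 0 in 15, with the later step higher in 6 and lower in 9. The 9 include Cyp51 over Lss, whose SD between the libraries was larger than the size of its mean.

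The genes of both transcription factors were higher than those of all 18 enzymes in TPM as deposited. In protein-coding transcripts Srebf1 averaged 111 TPM beside 103 TPM for Mvk, and after adjustment for GC 99.6 TPM beside 67.8 TPM for Sqle. Srebf2 (ENSMUSG00000022463, chromosome 15, 82147181 to 82205379, plus strand), which encodes SREBP-2, the main activator of cholesterol genes, had 512 and 584 TPM, from 184581 and 160901 counts. That placed it at percentile 99.1 of all protein-coding genes and at percentile 97.6 of those with at least 1 TPM. Srebf1 (chromosome 11, 60199089 to 60222581, minus strand), which encodes SREBP-1, known above all for fatty acid genes, had 200 and 220 TPM, and its model shares 109 bases with Rai1 on the other strand, which had 76511 and 69504 counts. Srebf2 exceeded Srebf1 by 1.35 and 1.40 (interval 0.96 to 1.80), and by 2.29 in protein-coding transcripts (interval 1.88 to 2.69). These are messages: the cleaved, active form of either protein is not measured by RNA.

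Scap, the escort protein, had 34.3 and 34.5 TPM. The 2 INSIG genes differed in level. Insig1 (ENSMUSG00000045294, chromosome 5, 28071363 to 28078662, plus strand), a textbook SREBP target that retains SCAP in the endoplasmic reticulum, had 6 counts in replicate 1 (95% Poisson interval 2.20 to 13.1) and 7 counts in replicate 2 (2.81 to 14.4), or 0.03 and 0.05 TPM. Insig2 (chromosome 1, 121304353 to 121332589, minus strand), its relative with the same role, had 711 and 386 counts, or 20.9 and 15.4 TPM.

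The Insig2 level in TPM rested on short gene models. Protein-coding transcripts under 1000 bases, chiefly models of 478 and 471 bases, took 94.0% ± 0.0392 of its TPM and 65.9% ± 0.656 of its counts. The longest Insig2 transcript, ENSMUST00000003818, and the single Insig1 transcript, ENSMUST00000059155, both have 2697 bases, so their counts can be compared directly. The Insig2 transcript had 239 counts against 6 for Insig1 in replicate 1, a ratio of 39.8 (95% interval 18.03 to 110). In replicate 2 it had 134 against 7, a ratio of 19.1 (95% interval 9.04 to 48.5), where the intervals cover counting error only. Insig2 was thus the higher of the 2 genes also on full-length transcripts, by a smaller margin than in TPM.

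The promoters of Srebf2, Insig1 and Insig2 are shown because a highly expressed, a nearly absent and a moderately expressed gene of 1 feedback circuit can be compared in them. They are written as for Hmgcs1, each 300 bases, with capitals for CCAAT boxes and, in Srebf2, for the letters TCACCCCA, a shorter form of the sterol element that was added after the sequence had been seen.
Srebf2, chr15:82147019-82147318: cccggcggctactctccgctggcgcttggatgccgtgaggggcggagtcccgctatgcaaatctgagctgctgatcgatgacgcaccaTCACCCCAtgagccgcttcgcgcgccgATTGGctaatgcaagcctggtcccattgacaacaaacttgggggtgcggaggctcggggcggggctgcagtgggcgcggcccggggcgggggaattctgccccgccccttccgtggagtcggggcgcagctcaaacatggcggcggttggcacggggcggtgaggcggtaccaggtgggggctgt
Insig1, chr5:28071162-28071461: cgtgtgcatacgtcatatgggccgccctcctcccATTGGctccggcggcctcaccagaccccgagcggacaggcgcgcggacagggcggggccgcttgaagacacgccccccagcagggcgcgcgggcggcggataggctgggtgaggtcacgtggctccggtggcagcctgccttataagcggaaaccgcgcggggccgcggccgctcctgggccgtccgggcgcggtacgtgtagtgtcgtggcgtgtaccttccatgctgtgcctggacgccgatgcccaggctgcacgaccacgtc
Insig2, chr1:121327975-121328274: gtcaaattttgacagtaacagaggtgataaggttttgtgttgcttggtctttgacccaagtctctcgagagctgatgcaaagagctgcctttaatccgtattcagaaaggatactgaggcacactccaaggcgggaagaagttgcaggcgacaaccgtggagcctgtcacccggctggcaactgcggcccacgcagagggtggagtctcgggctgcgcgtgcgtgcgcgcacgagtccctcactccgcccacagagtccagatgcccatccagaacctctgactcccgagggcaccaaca
The Srebf2 window held TCACCCCA at −162 and a CCAAT box on the opposite strand at −135. The Insig1 window held 1 CCAAT box on the opposite strand at −216 and an E-box (CACGTG) at −101. The Insig2 window shown belongs to the start site of ENSMUST00000003818 and held neither a CCAAT box nor a searched form of the sterol element. Insig2 has other windows, which are not shown. That at 121332540 to 121332839 held CCAAT boxes at −136, −46 and −29 and AGATAA on the opposite strand at −2. Transcripts that start near it had 0 counts in both libraries. That at 121327629 to 121327928, near the starts of the 478- and 471-base models, held none of these motifs. The letters AGATAA, the only form of the GATA motif searched, were in none of the 3 windows shown, on either strand. Other forms of the GATA motif were not searched, and the Insig2 window shown holds the letters TGATAA. A matched motif describes these letters and does not show that a factor was bound, and a missing one says only that the letters are not in the window.

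Srebf1 counts were assigned to transcript models with several start sites. These counts are estimates over overlapping models, and start sites were not measured. The 12 annotated transcripts begin in 7 places at least 1000 bases apart. ENSMUST00000020846, of 4299 bases, begins at 60220604 and took 32.7% of Srebf1 counts in replicate 1 and 44.0% in replicate 2. The 2 transcripts that begin at 60210392 and 60210465 took 12.8% and 13.3%. ENSMUST00000134660, of 4063 bases, begins inside the gene at 60207188 and took 50.5% of counts in replicate 1 and 38.8% in replicate 2. Which of the SREBP-1 protein forms each start yields is not given in the files. By TPM the order differed, since the processed transcript ENSMUST00000147967, of 686 bases, took 29.9% and 33.5%.

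The promoters of the 2 RefSeq start sites with the most assigned Srebf1 counts are shown because these starts belong to different first exons.
Srebf1, chr11:60220578-60220877: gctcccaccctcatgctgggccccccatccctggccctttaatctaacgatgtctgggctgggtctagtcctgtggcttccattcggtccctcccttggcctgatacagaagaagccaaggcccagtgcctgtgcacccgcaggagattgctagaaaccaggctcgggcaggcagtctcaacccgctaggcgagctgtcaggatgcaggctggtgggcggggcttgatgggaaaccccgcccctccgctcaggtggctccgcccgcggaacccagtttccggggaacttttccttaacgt
Srebf1, chr11:60210422-60210721: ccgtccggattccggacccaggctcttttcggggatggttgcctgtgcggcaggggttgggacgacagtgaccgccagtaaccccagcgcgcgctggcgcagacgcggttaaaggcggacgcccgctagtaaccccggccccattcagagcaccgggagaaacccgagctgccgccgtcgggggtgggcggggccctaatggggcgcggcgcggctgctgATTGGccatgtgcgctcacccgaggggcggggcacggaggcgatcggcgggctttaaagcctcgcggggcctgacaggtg
The upstream window belongs to ENSMUST00000020846 and held no CCAAT box and 3 GC boxes (GGGCGG or CCGCCC). The downstream window held a CCAAT box on the opposite strand at −30 and 2 GC boxes.

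Among the 5 member genes of transport and storage, Npc2, Stard4 and Npc1 reached 1 TPM in both libraries, and Soat1 and Abca1 did not. Npc2, the lumenal protein that takes cholesterol from lysosomes, had 61.2 and 62.5 TPM. Npc1, its membrane partner, had 1.26 and 1.56 TPM. Npc2 exceeded Npc1 by 4.78 and 4.63 (interval 4.28 to 5.14). The Npc1 gene model overlaps 967 bases of Rmc1 on the other strand, which had 895 and 686 counts.

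Stard4, which carries sterol between membranes, had 54.1 and 48.9 TPM, but 92.6% ± 1.35 of this was assigned to transcripts that are not annotated as protein-coding, above all a retained-intron model of 979 bases with 3046 and 2112 counts. In protein-coding transcripts Stard4 had 4.54 and 3.17 TPM. Soat1, the cholesterol-esterifying enzyme of most tissues, had 0 counts in replicate 1 and 3 counts in replicate 2, where a count of 0 allows up to 3. Its relative Soat2, known for the intestine and liver, had 933 and 640 counts, or 6.08 and 5.48 TPM. Abca1, the efflux pump, had 75 and 70 counts, or 0.10 and 0.12 TPM. No fold is given against Soat1, which lay at or under the floor in both libraries.

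Transcript assignment therefore set the level of several members. Of the 28 genes, 8 had 1 annotated transcript. For 19 of the others, the leading transcript by TPM was the same in both libraries in 16, and it was also the leader by counts in both libraries in 13. For Lss and Stard4 the leader was not annotated as protein-coding in either library. Transcripts of other annotation took 66.8% ± 7.94 of TPM in Ebp and 46.9% ± 2.22 in Srebf1. In Dhcr7, protein-coding models under 1000 bases took 59.9% ± 1.08 of TPM and 13.3% ± 3.19 of counts. In Tm7sf2 they took 55.0% ± 2.68 of TPM and 34.7% ± 2.36 of counts.

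**Figure D2:**
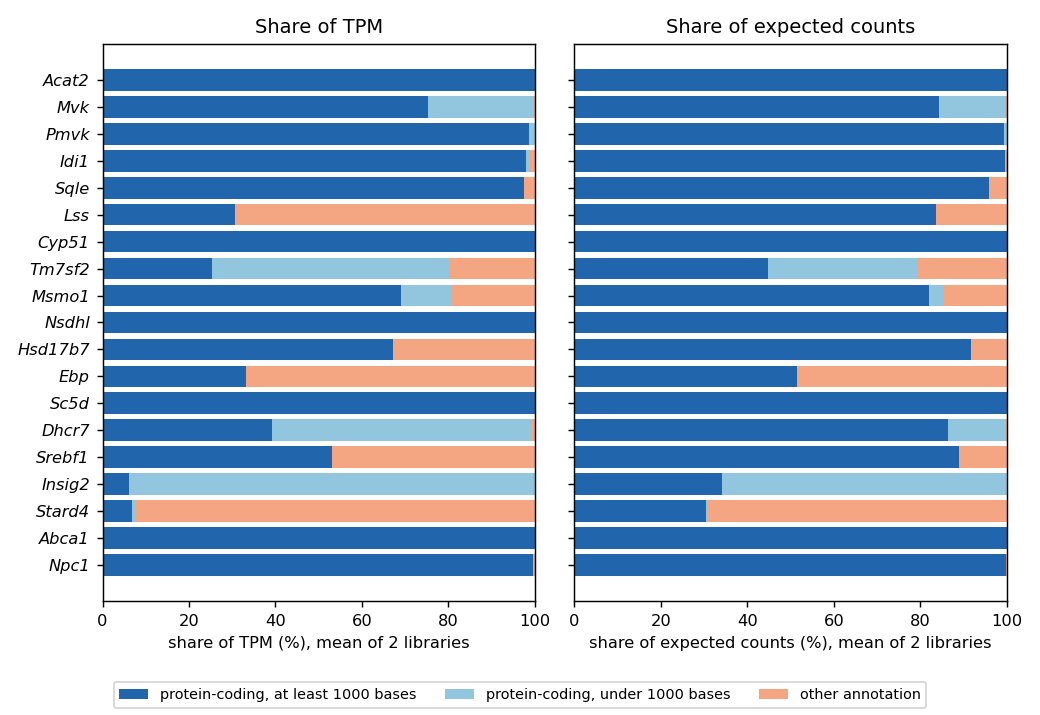
Share of each gene's TPM (left) and expected counts (right), in percent and as the mean of the 2 libraries, by kind of transcript for the 19 genes with several annotated transcripts and counts in both libraries. In Lss, Dhcr7, Srebf1 and Insig2 long protein-coding transcripts hold a larger share of counts than of TPM: short or non-coding models hold 69.3% of Lss TPM and 16.3% of Lss counts.

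When levels were summed over protein-coding transcripts alone, a setting chosen after the data were seen, 23 genes reached 1 TPM in both libraries and the median was 11.9 TPM. Srebf2 and Srebf1 were still the 2 highest genes, at 548 ± 50.6 and 111 ± 3.08 TPM, and Insig1, Soat1 and Abca1 the 3 lowest. When TPM was adjusted for GC content, 1 gene reached 100 TPM in both libraries. Srebf2 was then 248 ± 15.7 TPM and Srebf1 99.6 ± 1.56 TPM, followed by Stard4 at 90.1 ± 0.859 TPM, while Sqle, then the highest enzyme, was 67.8 ± 13.5 TPM, Mvk 51.1 ± 0.194 TPM and Mvd 40.7 ± 2.52 TPM. The GC-rich Mvk and Mvd (58.8% and 59.2% GC) moved down and the GC-poor Idi1 moved up, to 27.9 ± 4.68 TPM.

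**Figure D3:**
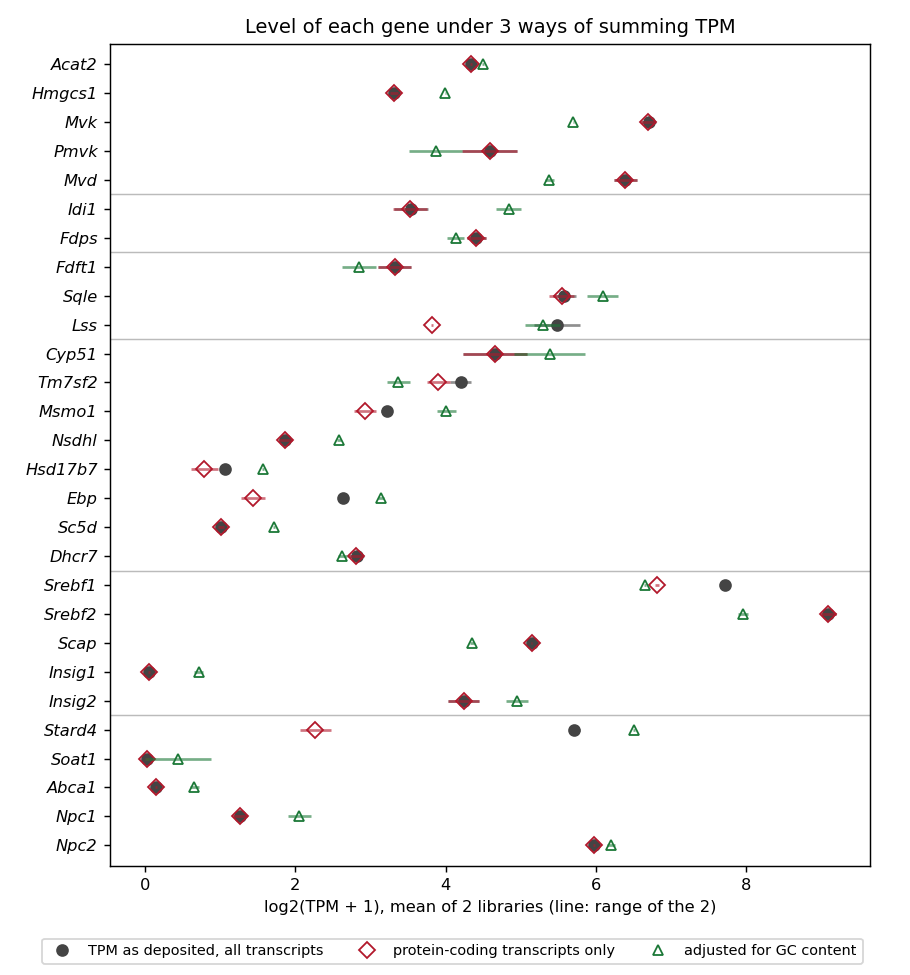
Level of each gene as log2(TPM + 1), mean of the 2 libraries with a line for their range, as deposited (filled circles), from protein-coding transcripts only (open diamonds) and after adjustment for GC content (open triangles). Stard4 moves from 51.5 TPM as deposited to 3.86 TPM in protein-coding transcripts, and Srebf2 is highest under all 3.

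Most of these genes stayed within 1.5-fold between the replicates. Counts were compared as the log2 ratio of replicate 2 over replicate 1 after TMM scaling, for genes with at least 20 summed counts. With 1 library on each side the ratio compares these libraries and has no replicate check. Of the 26 members tested, 1 was at least 1.5-fold higher in replicate 2, against 5.00% of 10445 genes, and 1 was at least 1.5-fold lower, against 11.0%. Insig1 and Soat1 had too few counts. The median size of the ratio, on the log2 scale, was 0.23 for the members and 0.24 for all genes tested.

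Cyp51 was the member higher in replicate 2, with 5007 counts in replicate 1 and 7107 in replicate 2, a log2 ratio of 0.96 (exact 95% interval 0.91 to 1.01, counting error only). Pmvk was the member lower in replicate 2, with 2288 and 1027 counts, at −0.70 (−0.81 to −0.60). Sqle, Mvd, Tm7sf2 and Mvk had ratios of 0.36, 0.37, 0.36 and 0.28. Fdft1, Hsd17b7, Insig2 and Idi1 had ratios of −0.43, −0.42, −0.43 and −0.42. Enzymes of the same route thus lay on both sides of 0.

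The ratio moved with GC content over the protein-coding genes among those tested. Its median was −0.24 in the bin of genes around 39.9% GC and 0.16 in the bin around 61.3% GC. Less this trend, Cyp51 was at 1.05 and Pmvk at −0.72, so both kept their sign and stayed past 1.5-fold. Replicate 2 was also the library with the myeloid messages named above, and the part of these messages in the ratios was not tested. The Cyp51 gene model shares 166 bases with Akap9 on the other strand, which had 2364 and 1436 counts. The part of shared reads in the Cyp51 ratio was not tested.

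**Figure D4:**
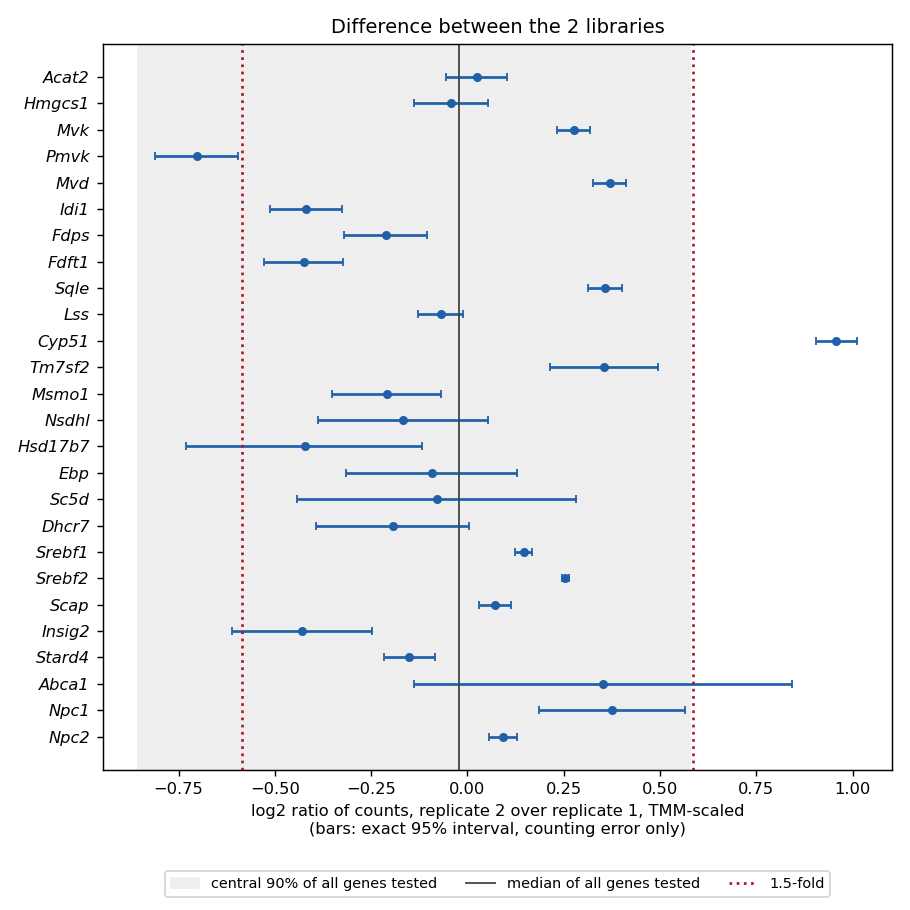
Log2 ratio of counts, replicate 2 over replicate 1 after TMM scaling, for the 26 genes with at least 20 summed counts; bars are exact 95% intervals of counting error, the grey band holds the central 90% of all genes tested, and dotted lines mark 1.5-fold. Cyp51 at 0.96 lies right of the band and Pmvk at −0.70 lies left of the 1.5-fold line.

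Neighbouring pathways were measured for comparison, each by a list of genes. Fatty acid synthesis genes, the usual targets of SREBP-1, reached 1 TPM in both libraries in 12 of 14 cases, and their median was 14.5 TPM. The list ran from the citrate carrier gene Slc25a1 at 213 ± 40.0 TPM (98.8 and 116 TPM in protein-coding transcripts) to the desaturase gene Scd1 at 0.045 ± 0.00707 TPM. Genes of the non-sterol isoprenoid branches had a median of 5.64 TPM, with 12 of 14 at 1 TPM, from the ubiquinone gene Coq2 at 29.7 ± 8.33 TPM (6.99 and 9.39 TPM in protein-coding transcripts) to the prenyltransferase subunit gene Pggt1b at 0.830 ± 0.283 TPM. SREBP processing and sterol-regulated turnover had a median of 11.6 TPM, with 9 of 10 at 1 TPM, and its lowest gene was Erlin1 at 0.250 ± 0.0566 TPM.

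Genes of cholesterol uptake and of the response to its excess included several with few or no reads. Sterol uptake and transfer had a median of 5.92 TPM, with 8 of 12 at 1 TPM, from the receptor chaperone gene Lrpap1 at 30.4 and 35.5 TPM (5.03 and 2.23 TPM in protein-coding transcripts) to Lipa, the lysosomal lipase, with 0 and 1 counts, and Vldlr, a lipoprotein receptor gene, with 1 and 3 counts. In the list of LXR receptors, efflux and oxysterol genes, 5 of 12 reached 1 TPM and the median was 0.17 TPM. Nr1h2, which encodes the oxysterol receptor LXR beta, had 561 ± 13.4 TPM. The oxysterol enzyme genes Cyp27a1, Ch25h and Cyp46a1 had 0 counts in both libraries, and the efflux gene Abcg1 had 1 and 0 counts. Its relative Abcg4, on the same list, had 25.28 and 20.25 TPM (19.2 and 13.35 TPM in protein-coding transcripts). All shares at 1 TPM are to be read against the 35.3% of protein-coding genes that reached it.

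**Figure D5:**
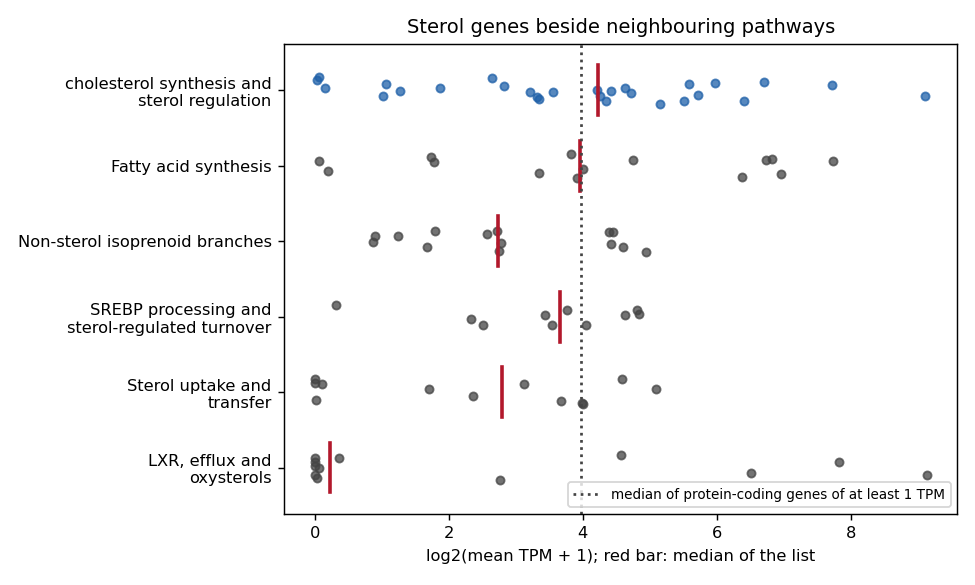
Mean level of each gene as log2(mean TPM + 1) in the 28 sterol genes and 5 lists of neighbouring pathways; red bars are list medians and the dotted line is the median of protein-coding genes with at least 1 TPM (14.7 TPM). The sterol genes (median 17.8 TPM) span from Soat1 near 0 to Srebf2 at 548 TPM, and the LXR list splits into silent genes and genes such as Nr1h2 at 561 TPM.

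Promoter windows were available in the RefSeq table for 23 of the 28 genes, as 31 windows of 300 bases. A CCAAT box was in 21 of the 31 windows, or 67.7%, against 37.4% of 32851 windows of all genes. A GC box was in 26, or 83.9%, against 35.7%. The E-box CACGTG was in 7, or 22.6%, against 7.15%, and the GATA motif AGATAA in 2, or 6.45%, against 11.2%. The sterol element TCACNCCAC was in 1 window, or 3.23%, against 1.24%. TCACCCCA, added after the Srebf2 sequence had been seen, was in 2, or 6.45%, against 1.56%. Its Srebf2 match was thus known beforehand and its Hmgcs1 match is the TCACNCCAC site, so this share is no measure of enrichment. Both strands were searched, windows of 1 gene can overlap, and windows were not matched on GC content.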

How the data were processed

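Poly(A) RNA of 2 libraries of 1 group was used, and gene-level and transcript-level values were deposited for each. Values refer to mouse build mm10 and GENCODE M4, per the deposited description files. No source used here gives the aligner or quantifier. Expected counts as deposited are, per the file headers, estimated fragments per gene or transcript, rounded to whole numbers for ratios between libraries. TPM as deposited corrects for effective length, with the same sum in each library. FPKM as deposited scales fragments by length and library. For transcripts the authors also gave the percent of gene TPM. Rows named by a number only (26248) and 97 other rows were left out. Names, transcript types and GC content came from GENCODE M21, which matched 42462 of 43346 gene rows. Counts were whole numbers, within 0.005, for 24 members; the estimated counts of Acat2, Idi1, Fdps and Tm7sf2 were not whole.

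The members, lists and pairs were chosen with earlier results of these data known. All members are named, with the highest and lowest gene of each list, except for items that are not reported here. Pairs were fitted with limma 3.58.1 (intercept, trend, genes with a mean of at least 1 TPM, pseudocount 1 TPM), and no p-value is given. TMM factors came from edgeR 4.0.16. Alternatives were a pseudocount of 0.1 TPM, no filter, FPKM, posterior means, adjustment for GC in 20 bins, library totals, DESeq2 1.42.0 size factors, other count minimums, 2-fold, and each replicate alone. Nothing in the labels says how the replicate cultures were separated, so spreads may be technical. Data were simulated over 8247 genes, drawn as independent with the fitted spread. The pair interval held the true log2 difference in 93.5% of 200 pairs at 0, 98% at 0.5, 94% at 1 and 95.5% at 2. At 0.5 it lay above 0 in 67.5% of pairs. The simulation held no GC trend and no transcript assignment, so it cannot show how the intervals behave under these. Pair intervals come from the spread between the libraries, pooled over genes; intervals of counts and count ratios, and floors, cover counting error only. R 4.3.3, Python 3.11.15, numpy 2.4.6, pandas 2.3.3 and scipy 1.17.1 were used.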

Additional observations from a re-analysis of the deposited data

How the results depend on the processing

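The counts of members at 1 and at 10 TPM stayed within 1.5 times of 23 and 15 under FPKM, posterior means, GC adjustment, protein-coding transcripts and each replicate alone. The count at 100 TPM was 1 after GC adjustment. The median of 17.8 TPM was 18.1 in FPKM, 18.2 with posterior means, 15.9 after GC adjustment, 11.9 in protein-coding transcripts and 19.3 over members of at least 1 TPM, and it was 16.5 without replicate 1 and 16.8 without replicate 2. The median percentile of the members among protein-coding genes, 83.6, was 83.9 with posterior means, 82.7 after GC adjustment, 56.4 among genes of at least 1 TPM, 83.2 without replicate 1 and 82.9 without replicate 2.

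Of 25 pairs, 21 had an interval and it excluded 0 in 19; the count stayed within 1.5 times of this under every alternative run. The sign turned for Fdps over Idi1 (−0.71), Cyp51 over Lss (0.092) and Msmo1 over Tm7sf2 (0.64) after GC adjustment, and for Cyp51 over Lss (0.84) in protein-coding transcripts. Lss over Sqle was −0.55 without replicate 1 and 0.36 without replicate 2, −0.80 with an interval excluding 0 after GC adjustment, and −1.72 in protein-coding transcripts. The cause was not tested. Adjustment for GC of the library ratios and the use of protein-coding transcripts only were chosen after seeing the data. Genes under 1 TPM are lifted by the GC adjustment through its construction on log2(TPM + 1). Acat2 over Acat1 lost its call without the filter, with posterior means (0.81) and after GC adjustment (0.25), Cyp51 over Lss without the filter, and Sc5d over Ebp (−0.43) in protein-coding transcripts, where Hsd17b7 was under 1 TPM and its pairs had no interval. Tm7sf2 over Cyp51 gained one after GC adjustment (−2.01) and in protein-coding transcripts (−0.76).

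Members higher by 1.5-fold in replicate 2 numbered 3 with no count minimum, where genes of few counts enter, and 0 at 2-fold. Members lower by 1.5-fold numbered 2 by TPM ratio and 0 at 2-fold. Depth limits Insig1, Soat1 and Abca1, at 75 counts or fewer. The libraries could not be paired because both belong to 1 group. The genes of a pair are measured in the same library, and the pair intervals do not use this.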

Other observations

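Models without a coding annotation also took much of the level of several neighbouring genes, which were picked after their values were seen. Fasn, fatty acid synthase, had 90.4 and 74.1 TPM over all transcripts and 24.98 and 25.8 TPM in protein-coding ones. Acss2, which makes acetyl-CoA from acetate, had 26.8 and 24.9 TPM over all transcripts and 6.22 and 6.17 TPM in protein-coding ones. Stard3, a sterol transfer gene of late endosomes, had 19.9 and 25.9 TPM over all transcripts and 6.09 and 8.75 TPM in protein-coding ones. Fads1 and Fads2, the front-end desaturase genes, had the same level either way, at 118 and 106 TPM for Fads1 and 106 and 105 TPM for Fads2.

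The desaturases differed within their family. Scd2 had 14.5 and 11.9 TPM, while Scd1 had 19 and 12 counts. Among LXR-linked genes, Lpcat3, a phospholipid remodelling enzyme, had 195 and 256 TPM and Rxrb 88.8 and 91.99 TPM, while Nr1h3, the gene of LXR alpha, had 0.42 and 0.16 TPM and Mylip 0.07 and 0.03 TPM.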
